A study of Caenorhabditis elegans with 6 samples.

Results

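The hedgehog-related secreted proteins of Caenorhabditis elegans were followed in embryos of the mutant strain yap-1(ys38) and of the wild-type strain N2. The family was taken as every probe set whose single gene symbol in the platform annotation begins with wrt-, grl-, grd- or hog- and a digit, or is qua-1. This gave 60 probe sets for 54 genes, of 17118 genes with a single-symbol probe set in all. They comprised 10 wrt genes, 30 grl genes, 12 grd genes, hog-1 and qua-1. RefSeq lists 59 protein-coding genes with such symbols (assembly WBcel235), and the other 5 (grd-4, grd-6, grd-13, grd-15 and grl-26) had no such probe set in the annotation used here.

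Total RNA of whole embryos, freed from egg-bearing adults by bleaching, was measured on 1-colour Affymetrix worm arrays, 1 array for each of 3 biological replicates per strain. The yap-1 gene specifies the YAP protein of the worm, a transcriptional coactivator restrained by the Hippo kinases, and the strains were compared to look for target genes of that pathway in the maintenance of cell polarity. The labels give neither the lesion carried by ys38 nor the stage of the embryos, and no other allele or treatment is named. The study excluded wild type replicate 2, whose results departed from its fellow replicates, so yap-1(ys38) replicates 1, 2 and 3 were set against wild type replicates 1 and 3 here, with wild type replicate 2 given beside them.

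C. elegans has no clear counterpart of the Smoothened protein that relays Hedgehog signals in flies and vertebrates. It has instead a large set of secreted proteins that share parts of Hedgehog's structure. Warthog (wrt), ground (grd) and ground-like (grl) proteins are named after their amino-terminal domains, and some wrt and grd proteins, together with HOG-1 and QUA-1, carry the carboxy-terminal Hog domain that cleaves Hedgehog precursors. The genes are known mostly from epidermal and other lining cells, where several of them act in moulting and in the matrix that covers the surface. A similarly expanded set of patched-related membrane proteins is thought to act with them.

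Values are MAS5 signals, the brightness of a probe set on a linear scale after the authors scaled each array globally. The number of arrays limits their precision. The median signal over all probe sets other than controls was 124, 118 and 133 in yap-1(ys38) replicates 1, 2 and 3, against 123, 86.6 and 122.5 in wild type replicates 1, 2 and 3. Wild type replicate 2 correlated least with the remaining arrays, at a mean Pearson r of 0.879 over the tested probe sets, while the means of those arrays were 0.930 to 0.951. Signal at the 3-prime over that at the 5-prime end, a measure of RNA integrity and labelling, averaged over 4 control transcripts 2.86 to 3.07 (log2) in yap-1(ys38) and 2.68, 3.64 and 3.74 in wild type replicates 1, 2 and 3. The yap-1 probe set read 371, 260.4 and 302 in yap-1(ys38), against 267 and 555 in wild type replicates 1 and 3 and 443 in wild type replicate 2. The groups overlapped, and since the position of the probes relative to the lesion is not known, this does not check the genotype. Of the embryonic markers, 11 of 11 epidermal, 14 of 14 germline and maternal and 7 of 8 measured early zygotic genes were bright enough to be tested. Of the measured genes of the embryonic cuticle and its precursor, 13 of 17 were. No marker value was 0, but all deposited values are positive, so this does not show that a gene was detected.

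A probe set was tested when its geometric mean over the 6 arrays exceeded 53.5, which 13529 of 22548 did. Of the 54 family members 31 were tested: 9 of 10 wrt, 14 of 30 grl, 6 of 12 grd genes, hog-1 and qua-1. The other 23 had values between 1.06 and 107 in single arrays and are described at the end. Closest to the filter stood wrt-3 above it, at a geometric mean of 62.8, and grl-13 below it, at 48.5. Signals of different probe sets depend on their probes, so levels are compared between arrays and not between genes.

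None of the 31 members was called between the strains. limma gave 0 at an adjusted p under 0.05, as for all 13529 probe sets tested (0%), and 0 at an unadjusted p under 0.05, which 1.04% of all probe sets reached. The lowest unadjusted p in the family was 0.113, and the adjusted p was 0.9998 for every member. With a block for the replicate number the count over all probe sets was 12 (0.0887%) and that of members was again 0. At an unadjusted p under 0.05 that fit held 1 member, wrt-8 (3.46% of all probe sets), the block over all 6 arrays 1, grl-16 (2.43%), and the fit without wild type replicate 1 held 3, wrt-8, grl-4 and grl-21 (6.41%), all with an adjusted p above the threshold. Without wild type replicate 2 the blocked fit compares only the pairs numbered 1 and 3, since yap-1(ys38) replicate 2 has no partner in it. That fit leaves 1 residual degree of freedom.

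Family members lay slightly below wild type replicates 1 and 3 for the most part, a direction that turned when wild type replicate 2 was added. Of the 31, 23 had a log2 fold change below 0, whereas 48.8% of all probe sets did, and the family median was -0.14 against 0.01 over all probe sets. With all 6 arrays 5 of 31 lay below 0 (44.5% of all probe sets) and the median was 0.33, and with the replicate block 17 of 31 did (48.8%), with a median of -0.05. Medians on the arrays compared were -0.26 for the 9 wrt genes, -0.21 for the 14 grl genes, -0.01 for the 6 grd genes and 0.06 for hog-1 with qua-1. The values ran from -0.57 at wrt-8 to 0.51 at grl-25, with standard errors from 0.15 to 0.60. The value at wrt-8 rested on the wild-type arrays: it was 0.09 without replicate 3 and -1.24 without replicate 1. Wild type replicate 3 exceeded wild type replicate 1 at 23 of 31 members (51.7% of all probe sets), and 3 members, wrt-8, grl-21 and qua-1, differed between these arrays by 2-fold or more (8.91%). The tilt between the strains moved with wild type replicate 3: without it 16 of 31 members lay below 0 and the family median was -0.01, while the median was -0.23 when wild type replicate 1 was dropped. Without yap-1(ys38) replicate 2 the family median was -0.05, the same estimate as with the block, which takes nothing from that array. Without yap-1(ys38) replicate 3 it was -0.26.

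**Figure D1:**
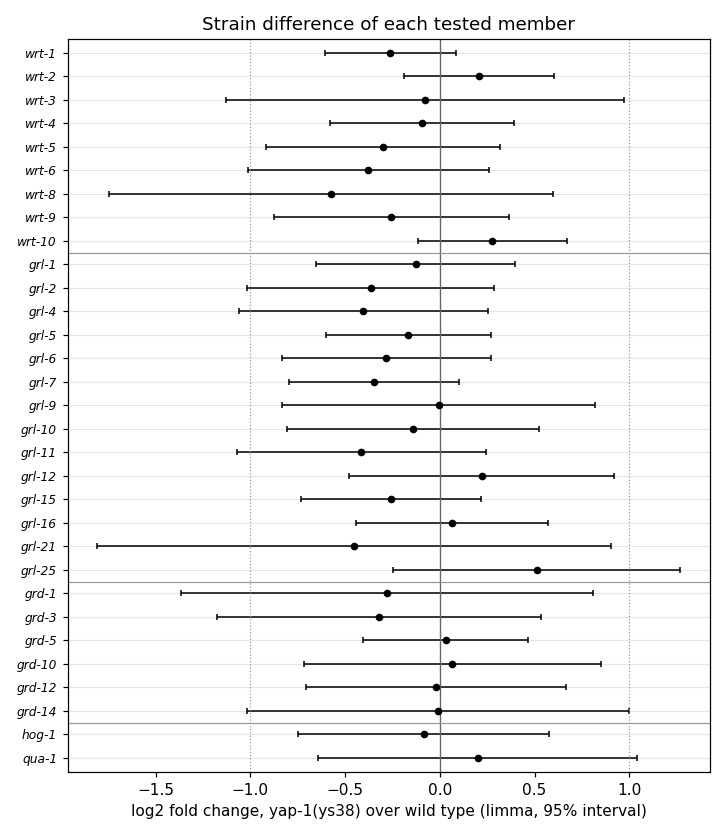
Log2 fold change (x axis, yap-1(ys38) over wild type replicates 1 and 3) of the 31 tested members (rows, grouped as wrt, grl, grd, then hog-1 and qua-1), with 95% intervals from limma. Every interval spans 0, and 19 of the 31 lie within the dotted lines that mark a 2-fold difference either way.

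The intervals show what size of difference these arrays could hide. For 19 of 31 members the 95% interval lay within a 2-fold difference in both directions, as it did for 72.8% of all probe sets. It was narrowest at wrt-1, from -0.61 to 0.08, and widest at grl-21, from -1.81 to 0.91. With all 6 arrays the log2 fold change was 0.12 at wrt-1, outside that interval, and 0.82 at grl-21, inside it. The intervals thus depend on the exclusion of wild type replicate 2.

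Of the 9 warthog genes tested, 7 had a log2 fold change below 0. wrt-1, which encodes a Wart domain followed by a Hog domain, had a MAS5 signal of 3140.5, 3068 and 2769 in yap-1(ys38) replicates 1, 2 and 3, against 3652 and 3513 in wild type replicates 1 and 3 and 1636 in the set-aside wild type replicate 2. Its log2 level was 11.54 ± 0.10 (SD, n = 3) in yap-1(ys38) and 11.81 ± 0.04 (SD, n = 2) in wild type, so all 3 yap-1(ys38) arrays lay below both of the wild-type arrays compared, by a log2 fold change of -0.26 (SE 0.15). At an unadjusted p of 0.120 in limma this did not pass the test; the methods' t-test, run on the same log2 values, placed wrt-1 alone of the 31 members past its unadjusted threshold of 0.05 (1.49% of all probe sets) and none after Benjamini-Hochberg adjustment.

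The gene next to wrt-1 in the genome stood the other way. wrt-10, which encodes a Wart domain without a Hog domain and is the immediate neighbour of wrt-1 in the RefSeq gene order, read 3569, 3960.2 and 3059.7 in yap-1(ys38), against 3138 and 2674 in wild type replicates 1 and 3 and 3759 in wild type replicate 2. Its lowest yap-1(ys38) value lay below the higher wild-type one, so the groups overlapped (log2 fold change 0.28 (SE 0.17)). Within each replicate number wrt-10 was higher in yap-1(ys38), by 0.19, 0.08 and 0.19 on the log2 scale for numbers 1, 2 and 3.

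wrt-2, another Wart protein without a Hog domain, read 3174, 2967 and 2589 in yap-1(ys38), against 2766 and 2287 in wild type replicates 1 and 3 and 1080.5 in wild type replicate 2. Among the arrays compared, yap-1(ys38) replicates 1 and 2 were the highest while replicate 3 lay between the wild-type values (log2 fold change 0.21 (SE 0.17)). wrt-6 (Wart and Hog domains) read 312, 263 and 247 in yap-1(ys38), against 284 and 441 in wild type replicates 1 and 3 and 179 in wild type replicate 2. Wild type replicate 3 stood alone at the top, and the log2 fold change of -0.38 (SE 0.28) became -0.06 without it.

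wrt-9 read 198, 201 and 162 in yap-1(ys38), against 208 and 238 in wild type replicates 1 and 3 and 83.8 in wild type replicate 2. All yap-1(ys38) values were under both wild-type values, the highest by only a few units (log2 fold change -0.26 (SE 0.27)). The remaining 4 tested warthog genes, wrt-3, wrt-4, wrt-5 and wrt-8, had log2 fold changes between -0.57 and -0.08 with overlapping groups. wrt-8, a Wart and Hog gene that was chosen for description after its values were seen, read 73.4, 153 and 200.5 in yap-1(ys38), against 123 and 309 in wild type replicates 1 and 3 and 95.1 in wild type replicate 2. Among the arrays compared, both strains had their lowest value in replicate 1 and their highest in replicate 3, and the log2 fold change was -0.57 (SE 0.52).

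**Figure D2:**
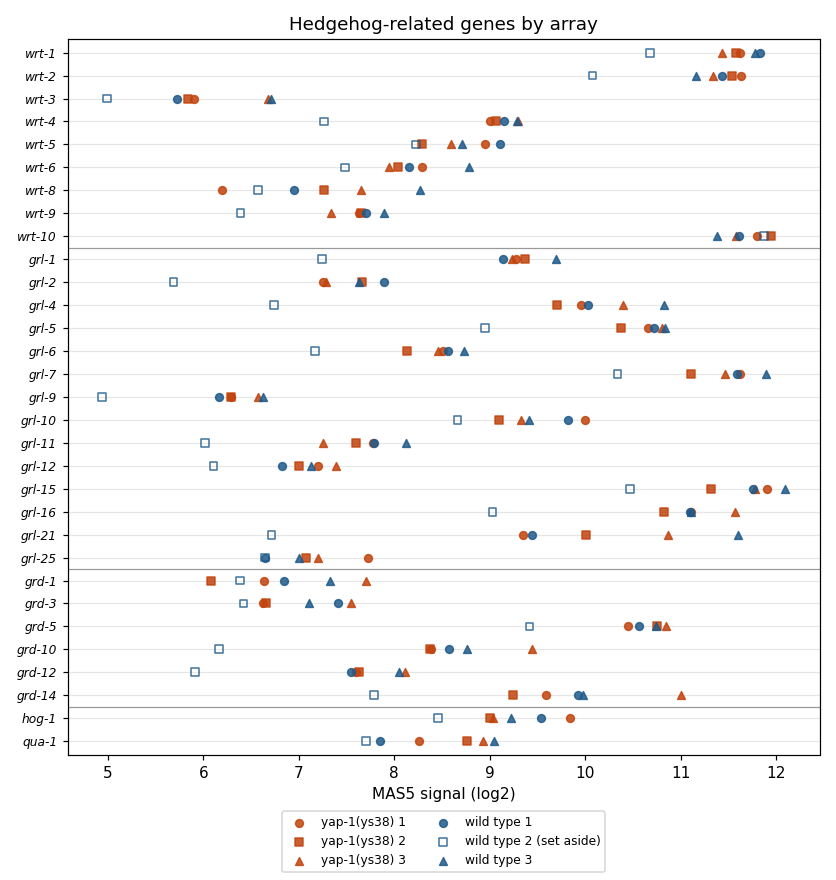
MAS5 signal (x axis, log2) of the 31 tested members (rows) in each array; red symbols are the yap-1(ys38) arrays, blue symbols the wild-type arrays, and symbol shape gives the replicate number. The open blue square, wild type replicate 2, is the leftmost point in 28 of 31 rows, and the filled red and blue points overlap in 26.

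Ground-like genes form the largest subfamily, and 11 of the 14 tested had a log2 fold change below 0. grl-7 read 3151, 2215 and 2819 in yap-1(ys38), against 3091 and 3812 in wild type replicates 1 and 3 and 1294 in wild type replicate 2 at its brighter probe set. yap-1(ys38) replicate 1 lay above wild type replicate 1, so the groups overlapped (log2 level 11.40 ± 0.26 (SD, n = 3) in yap-1(ys38) and 11.75 ± 0.21 (SD, n = 2) in wild type). The log2 fold change was -0.35 (SE 0.20) there and -0.08 (SE 0.20) at the second tested probe set, a smaller difference of the same sign.

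grl-15 read 3847, 2560.3 and 3518 in yap-1(ys38), against 3465 and 4379 in wild type replicates 1 and 3 and 1414 in wild type replicate 2. yap-1(ys38) replicate 2 was the lowest of the arrays compared and wild type replicate 3 the highest (log2 fold change -0.26 (SE 0.21)). grl-16 read 2212, 1819 and 3033 in yap-1(ys38), against 2198 and 2209 in wild type replicates 1 and 3 and 522 in wild type replicate 2, and its wild-type arrays were nearly equal while the yap-1(ys38) arrays lay on both sides of them (log2 fold change 0.06 (SE 0.22)).

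At grl-6 and grl-11 all yap-1(ys38) arrays lay below the wild-type arrays compared. grl-11 read 219, 193 and 153 in yap-1(ys38), against 221 and 279 in wild type replicates 1 and 3 and 64.9 in wild type replicate 2. The first replicates of both strains were nearly equal there, and the log2 fold change was -0.42 (SE 0.29). grl-6 read 364, 281 and 350.4 in yap-1(ys38), against 377 and 426 in wild type replicates 1 and 3 and 144 in wild type replicate 2 (log2 fold change -0.28 (SE 0.24)). With wrt-1 and wrt-9 these made 4 of 31 members entirely below wild type, against 4.92% of all probe sets.

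The single member that every yap-1(ys38) array placed above wild type was grl-25, against 5.9% of all probe sets. grl-25 read 211, 135 and 147 in yap-1(ys38), against 100.003 and 128 in wild type replicates 1 and 3 and 99.9 in wild type replicate 2. yap-1(ys38) replicate 1 carried most of the difference, a log2 fold change of 0.51 (SE 0.33), which was 0.32 without that array. Its second probe set, too dim to be tested, differed by -0.26 in the opposite direction. grl-12 read 147, 129 and 168 in yap-1(ys38), against 114 and 139.8 in wild type replicates 1 and 3 and 68.9 in wild type replicate 2, and the overlapping groups gave a log2 fold change of 0.22 (SE 0.31).

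Several ground-like genes varied more between arrays of a strain than between strains. grl-21, placed upstream of the patched-related receptor PTR-24 in the control of lipid stores in adult worms, read 649.6, 1026 and 1862 in yap-1(ys38) replicates 1, 2 and 3, against 695 and 3111 in wild type replicates 1 and 3 and 105 in the set-aside wild type replicate 2. The wild-type arrays compared differed by 2.16 on the log2 scale, far more than the strain means did (log2 fold change -0.45 (SE 0.60)). Leaving out wild type replicate 1 gave -1.53, whereas 0.63 was obtained when replicate 3 was left out.

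grl-4 read 990.1, 834 and 1352 in yap-1(ys38), against 1042 and 1809 in wild type replicates 1 and 3 and 107 in wild type replicate 2. The highest value was in wild type replicate 3 and the lowest of the arrays compared in yap-1(ys38) replicate 2 (log2 fold change -0.40 (SE 0.29), and -0.01 without wild type replicate 3). grl-1 read 619, 659.8 and 601 in yap-1(ys38), against 565 and 828 in wild type replicates 1 and 3 and 151.9 in wild type replicate 2, the yap-1(ys38) arrays being close together between the wild-type values (log2 fold change -0.13 (SE 0.23)). The other 4 tested, grl-2, grl-5, grl-9 and grl-10, gave log2 fold changes between -0.37 and -0.01, grl-2 being a gene known from the duct and pore cells of the excretory system.

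Ground genes stood higher in yap-1(ys38) replicate 3 than in the other yap-1(ys38) arrays. All 6 tested grd genes exceeded their mean of wild type replicates 1 and 3 in yap-1(ys38) replicate 3, against 0 of 6 in yap-1(ys38) replicate 1 and 1 of 6 in yap-1(ys38) replicate 2, where 54.2%, 49.9% and 52.3% of all probe sets did. Over all 31 tested members the counts were 18 in yap-1(ys38) replicate 3, 8 in replicate 1 and 6 in replicate 2. Among these arrays the wrt and grl medians were also highest in replicate 3, at 0.04 and -0.08, while that of hog-1 with qua-1 was highest in replicate 1. The ordering of the grd genes was noticed after the values were seen and was not tested. grd-14 read 769, 604 and 2055 in yap-1(ys38), against 970.1 and 1011 in wild type replicates 1 and 3 and 222 in wild type replicate 2. yap-1(ys38) replicate 3 lay far above both wild-type arrays compared while the other yap-1(ys38) arrays lay below each of them, so the log2 level was 9.94 ± 0.94 (SD, n = 3) in yap-1(ys38) and 9.95 ± 0.04 (SD, n = 2) in wild type.

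The spread of the yap-1(ys38) arrays at grd-14 left a log2 fold change of -0.01 (SE 0.44), which was -0.54 without yap-1(ys38) replicate 3. grd-10 read 333, 332 and 696 in yap-1(ys38), against 379.5 and 435 in wild type replicates 1 and 3 and 71.8 in wild type replicate 2, again with yap-1(ys38) replicate 3 highest (log2 fold change 0.07 (SE 0.35), and -0.29 without that array). grd-5 varied little, at 1399.7, 1726 and 1838 in yap-1(ys38), against 1515 and 1712 in wild type replicates 1 and 3 and 684 in wild type replicate 2 (log2 fold change 0.03 (SE 0.19)). For grd-1, grd-3 and grd-12 the log2 fold changes lay between -0.32 and -0.02. A second, untested probe set of grd-1 differed in sign from the tested one.

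hog-1, which encodes a protein with a Hog domain and neither a Wart nor a Ground domain, read 915, 513 and 522 in yap-1(ys38), against 740.3 and 597 in wild type replicates 1 and 3 and 351 in wild type replicate 2. yap-1(ys38) replicate 1 was the highest array and the other yap-1(ys38) arrays lay below both wild-type values compared (log2 fold change -0.09 (SE 0.29)). qua-1, a Hog-domain gene needed for moulting, read 306, 434 and 487 in yap-1(ys38), against 231 and 529 in wild type replicates 1 and 3 and 208 in wild type replicate 2. All yap-1(ys38) values lay between the wild-type values compared (log2 fold change 0.20 (SE 0.37)). Leaving out the lower of these, replicate 1, gave -0.40, and leaving out the higher, replicate 3, gave 0.80.

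Within replicate numbers the family median was far from 0 only in number 2. For number 1, 15 of 31 members were higher in yap-1(ys38) (48.4% of all probe sets) and the median difference was -0.01. For number 2 the count was 30 of 31 (52.7% of all probe sets), with a median of 1.06, and for number 3 it was 12 of 31 (52.4%), with a median of -0.09. In number 2, 16 members differed by 2-fold or more, all higher in yap-1(ys38), against 15.7% of all probe sets, and in numbers 1 and 3 a single member each did (grl-25 and grd-14, against 1.29% and 2.87%). No member was lower in yap-1(ys38) by 2-fold or more in numbers 1, 2 or 3 (1.19%, 4.37% and 1.39% of all probe sets). Number 2 is the pair that holds the excluded wild-type array. grd-1 was the only member lower in yap-1(ys38) there.

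**Figure D3:**
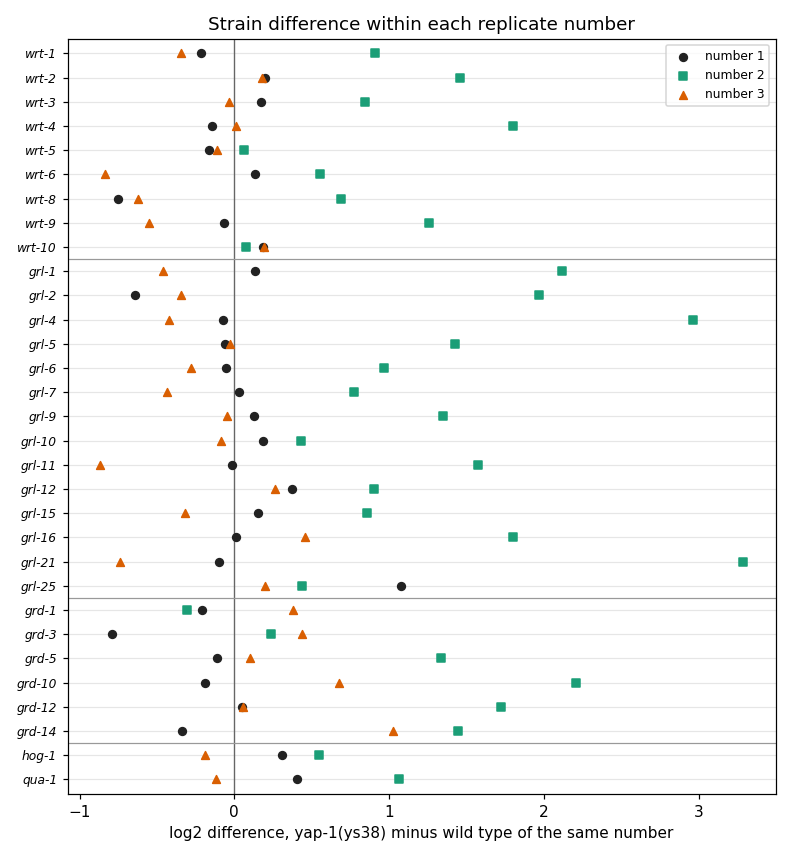
Log2 difference of the same-numbered arrays (x axis, yap-1(ys38) minus wild type) for each of the 31 tested members (rows); symbol and colour give the replicate number. The squares, number 2, lie right of 0 in 30 of 31 rows with a median of 1.06, and the points of numbers 1 and 3 lie around 0.

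In the excluded array the family was low almost throughout. Wild type replicate 2 was the lowest of the 6 arrays for 28 of 31 members, where it was lowest for 34.7% of all probe sets, and 21 members were lower there by 2-fold or more than the mean of wild type replicates 1 and 3 (18.3% of all probe sets), whereas 0 were higher by as much (5.64%). The median member stood at 0.377 times that mean, or -1.41 on the log2 scale, against 0.01 for all probe sets. All 14 tested grl genes were lowest in it, 11 of them by 2-fold or more. The count rests on 1 array and carries no test.

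The largest such differences were at grl-21 and grl-4, at 0.0714 and 0.0778 times the mean of wild type replicates 1 and 3. grd-10 stood at 0.177 times it, grl-1 at 0.222, grd-14 at 0.224, grl-2 and grl-16 at 0.237 each and wrt-4 at 0.258. wrt-10 was the exception, at 1.30 times the mean of wild type replicates 1 and 3, and was the only tested member that read higher in wild type replicate 2. grl-25 was barely lower, at 0.884 times. Centring each array on its median moves all values of an array alike. It put the median tested probe set of wild type replicate 2 at 0.51 relative to wild type replicates 1 and 3, and the median member at -0.90. It left 11 members lower by 2-fold or more, and the share over all probe sets was not counted after centring.

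**Figure D4:**
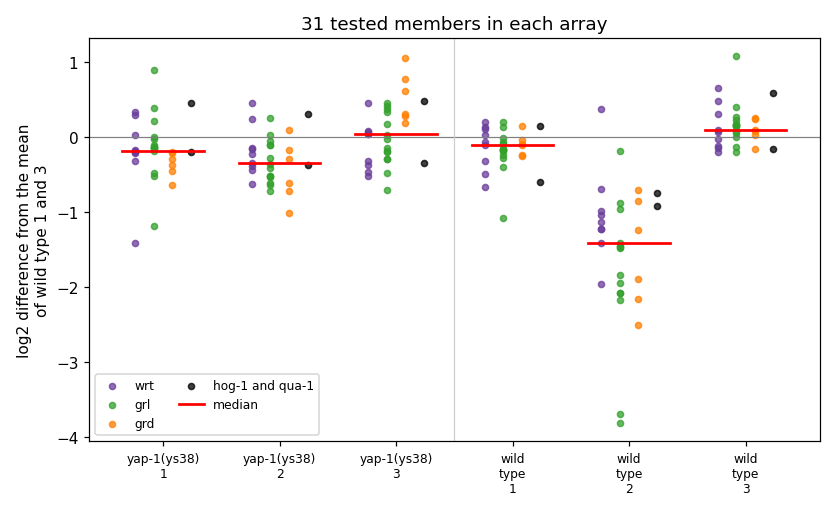
Log2 difference of each tested member from its mean in wild type replicates 1 and 3 (y axis), by array (x axis); dots are genes coloured by subfamily and red bars the median of the 31 members. The median is -1.41 in wild type replicate 2 and between -0.35 and 0.10 in the other arrays, and all grd genes lie above 0 in yap-1(ys38) replicate 3.

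Markers of differentiated tissues were low in the same array. Medians in wild type replicate 2, relative to wild type replicates 1 and 3, were -2.35 for 7 pharyngeal genes, -1.59 for 10 body wall muscle genes, -1.29 for 10 genes of neurons and glia and -0.87 for 8 intestinal genes. Epidermal genes (-0.31, 11 genes) and genes of the embryonic cuticle and its precursor (-0.18, 13 genes) moved less, and germline and maternal (0.77, 14 genes), early zygotic (0.71, 7 genes) and yolk and sperm genes (1.76, 24 genes) were higher. For yolk and sperm genes the reference arrays themselves lay far apart, at 1.28 in wild type replicate 1 and -1.28 in wild type replicate 3. Their median was 1.36 in yap-1(ys38) replicate 1, so a high value was not particular to wild type replicate 2. The summed signal of the 54 family members was 28146 to 33912 in yap-1(ys38), against 31074 and 36112 in wild type replicates 1 and 3 and 14562 in wild type replicate 2. That of the 11 epidermal markers was 31599 to 37367 in yap-1(ys38), against 34820.1 and 38686 in wild type replicates 1 and 3 and 28487 in wild type replicate 2. In whole embryos fewer cells of a type and less RNA per cell cannot be told apart, and the part of tissue content, developmental stage or RNA quality in the family's values was not tested.

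Between the strains no gene of the marker lists passed the adjusted test. Median log2 fold changes were -0.14 for the family, -0.06 for epidermal, 0.09 for cuticle, -0.23 for muscle, -0.26 for pharyngeal and 0.14 for germline and maternal genes. They were -0.145 for intestinal, -0.13 for early zygotic and -0.12 for neuronal and glial genes, close to the family's, and -0.0013 for yolk and sperm genes. limma gave an unadjusted p under 0.05 to 1 epidermal and 1 intestinal gene and to none of the other lists. A log2 fold change below 0, which 48.8% of all probe sets had, was found for 7 of 11 epidermal, 4 of 13 cuticle, 8 of 10 muscle, 4 of 7 pharyngeal, 6 of 8 intestinal, 7 of 10 neuronal and glial, 1 of 14 germline and maternal, 6 of 7 early zygotic and 12 of 24 yolk and sperm genes. The summed yolk and sperm signal, a trace of adult material, was 10462, 3210 and 1786 in yap-1(ys38) replicates 1, 2 and 3. In wild type it was 13193 and 1347 in replicates 1 and 3 and 20230.4 in replicate 2.

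**Figure D5:**
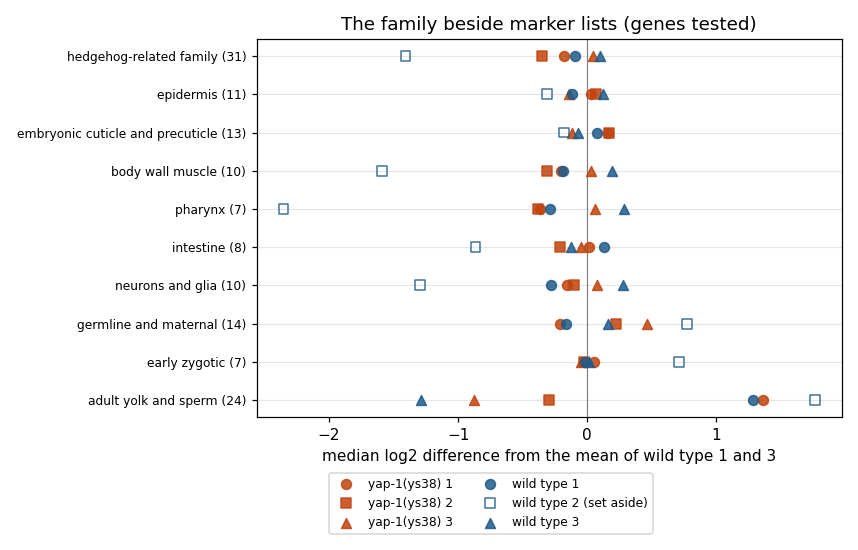
Median log2 difference from the mean of wild type replicates 1 and 3 (x axis) for the family and 9 marker lists (rows, with the number of genes tested), 1 symbol per array. Wild type replicate 2, the open square, lies at -1.41 for the family, -1.59 for body wall muscle and -0.31 for epidermis, and on the other side at 0.77 for germline and maternal genes.

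The patched-related and other sterol-sensing-domain genes, listed together with tra-1, gave no calls either. Of the 34 genes listed, 32 were measured and 27 tested, and limma called 0, with 0 at an unadjusted p under 0.05 (1.04% of all probe sets) and 1 by the methods' t-test before adjustment (1.49%). Their median log2 fold change was -0.06, with 19 below 0 (48.8% of all probe sets) and 8 above, and 12 of 27 were lower by 2-fold or more in wild type replicate 2 (18.3%). tra-1, the worm Gli homologue that acts in sex determination, read 464, 456 and 409 in yap-1(ys38), against 320.0 and 402 in wild type replicates 1 and 3 and 498 in wild type replicate 2. It was higher in every yap-1(ys38) array than in the wild-type arrays compared, yet highest of all in wild type replicate 2 (log2 fold change 0.30 (SE 0.23)). The patched-related genes with the lowest p were ptr-16, at -0.37 (SE 0.29), and ptr-15, at -0.29 (SE 0.24), both with overlapping groups.

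Position in the genome was shared by some members. In the RefSeq gene order of 19983 protein-coding genes, 7 pairs of family members were direct neighbours. Among them, only wrt-1 with wrt-10 and grd-3 with grd-10 had both genes tested, and in each pair the log2 fold changes had opposite signs: -0.26 (SE 0.15) and 0.28 (SE 0.17) for the first and -0.32 (SE 0.38) and 0.07 (SE 0.35) for the second. Neither contrast of signs was kept throughout: with all 6 arrays wrt-1 was at 0.12 and wrt-10 at 0.15, and grd-10 was at -0.29 without yap-1(ys38) replicate 3 and at -0.03 without wild type replicate 1, the same sign as grd-3. grl-28, grl-29, grl-30 and grl-31, neighbours with at most 1 other gene between them, were all too dim to be tested, as was grl-27 nearby.

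The 23 members below the filter comprised wrt-7, 16 grl genes (grl-3, grl-8, grl-13, grl-14, grl-17 to grl-20, grl-22 to grl-24 and grl-27 to grl-31) and 6 grd genes (grd-2, grd-7, grd-8, grd-9, grd-11 and grd-16). Detection calls were not used here, so their values cannot be told from background, and 9 of the 23 exceeded 53.5 in at least 1 array. grl-13 read 77, 74.4 and 69.9 in yap-1(ys38), against 69.7 and 99.1 in wild type replicates 1 and 3 and 4.7 in wild type replicate 2, so it fell below the filter through wild type replicate 2, and it was tested when the filter read only the arrays compared. grl-20 and grl-29 had probe sets that differed in sign between the strains, all of them dim. grl-18, known from socket glia of the head, read 2.29, 1.17 and 53.8 in yap-1(ys38), against 1.16 and 3.22 in wild type replicates 1 and 3 and 10.4 in wild type replicate 2.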

How the data were processed

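The deposited table holds 1 MAS5 intensity per probe set and array, made by the authors with MAS 5.0 and globally scaled in Genplex 3.0, per the labels' design text. All values were positive on a linear scale. Detection calls were not used here. After removal of 77 control probe sets, intensities were log2-transformed without further scaling. Probe sets with a mean log2 value over the 6 arrays above the 40th percentile were fitted in limma 3.58.1 (R 4.3.3; lmFit, then eBayes with a trend on intensity; two-sided p adjusted over 13529 probe sets by Benjamini-Hochberg; threshold 0.05) on yap-1(ys38) replicates 1, 2 and 3 and wild type replicates 1 and 3. The fit was run on simulated data with noise independent between arrays and planted changes larger than any estimated for a family member. That run does not show what the fit can find at the size of the family's differences. Where several probe sets of a gene were tested, the brightest stood for it. Of the 31 tested members 12 were read by probe sets with an s suffix, which can bind more than 1 transcript.

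The platform annotation gave 20766 probe sets 1 symbol, 887 several and 895 none listed, and all 54 members matched RefSeq by symbol. Members and lists were chosen with earlier results of these data known. Genes given values were the 3 brightest tested of each subfamily, the 5 higher and 5 lower with the lowest p, up to 6 with the largest change among those whose strains did not overlap, the 6 with the widest range over the arrays, the 3 genes of the patched-related list with the lowest p, and yap-1. Added after their values were seen were wrt-8, grd-3 (as the neighbour of grd-10) and the untested grl-13, grl-18, grl-22, grl-27 and grd-7. Outside these choices, wrt-4 and grl-2 were named with their level in wild type replicate 2 only. Arrays that share a number deviated together from their strain means (r = 0.364, 0.345 and 0.445 for numbers 1, 2 and 3, against 0.015 or less for other pairs across the tested probe sets), so the numbers, taken from the titles, were treated as pairs in a blocked alternative. Deviations from a strain mean cancel within the strain, so the values of the other pairs are not independent of those that share a number. Wild type replicate 2 is part of its strain mean. Other alternatives were the arrays fitted, the normalization, the filter, a floor of 50, the methods' t-test (here a Welch test), the variance model, another choice of probe set and leaving out replicates.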

Additional observations from a re-analysis of the deposited data

How the results depend on the processing

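No family member and no patched-related gene passed the adjusted test under any alternative. Over all probe sets limma called 12 with the replicate block (468 at an unadjusted p under 0.05), between 0 and 3 on leaving out 1 replicate and 0 under the remaining alternatives. Adding wild type replicate 2 turned the family: with all 6 arrays 26 of 31 members had a log2 fold change above 0, with medians of 0.33 for the family, 0.15 for wrt, 0.46 for grl, 0.53 for grd and 0.33 for hog-1 with qua-1, and the log2 fold changes became 0.12 (wrt-1), 0.21 (wrt-9), 0.60 (grl-1), 0.82 (grl-4), 0.21 (grl-6), 0.12 (grl-7), 0.23 (grl-11), 0.23 (grl-15), 0.82 (grl-21), 0.71 (grd-14) and 0.22 (hog-1). The replicate block with all 6 arrays gave the same values, as a balanced design must, and unadjusted p under 0.05 for 1 member, grl-16 (2.43% of all probe sets). The block on the arrays compared takes nothing from yap-1(ys38) replicate 2, so its log2 fold changes are those of leaving that array out and are no separate check. It gave a family median of -0.05 with 17 of 31 members below 0, against 23 without the block. The block turned 8 members, a count without its share over all probe sets: wrt-3 (0.0716), grl-9 (0.0403), grl-10 (0.0484), grd-1 (0.0845), grd-5 (-0.0055), grd-12 (0.053), grd-14 (0.34) and hog-1 (0.0571). It gave wrt-8 an unadjusted p under 0.05 (3.46% of all probe sets), as did leaving out wild type replicate 1 for wrt-8, grl-4 and grl-21 (6.41%); quantile normalization turned grd-14 (0.0064).

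Leaving out 1 replicate gave medians from -0.26 to -0.0063 for the family, -0.23 to -0.03 for wrt, -0.30 to -0.0471 for grl, -0.41 to 0.11 for grd and -0.16 to 0.28 for hog-1 with qua-1. Throughout these fits 17 of 31 members kept their sign, and the share of all probe sets that did so was not counted. Among the genes described, 9 changed sign, over ranges of -1.24 to 0.0887 (wrt-8), -0.40 to 0.15 (grl-1), -0.14 to 0.23 (grl-16), -1.53 to 0.63 (grl-21), -0.0584 to 0.15 (grd-5), -0.29 to 0.25 (grd-10), -0.54 to 0.34 (grd-14), -0.36 to 0.0696 (hog-1) and -0.40 to 0.80 (qua-1). A fit without a wild-type replicate leaves 1 wild-type array, which is assumed to vary like the mutant ones. Median centring lowered the count of members 2-fold lower in wild type replicate 2 to 11, against 18 after quantile normalization and 21 as deposited (18.3% of all probe sets, a share not counted after either normalization). The median member stood at -0.90, -1.225 and -1.41 in the same order, and the median of all tested probe sets at 0.51, 0.10 and 0.01. Centring thus moved the family and all probe sets up alike. A filter on the 5 arrays compared, chosen after seeing the data, tested 32 members. Probe sets under 53.5 limit what can be read for 23 members.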

Other observations

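Of the members below the filter, some read high in single arrays, and these values were picked out after they were seen. grl-27 read 10.8, 21.8 and 74 in yap-1(ys38) replicates 1, 2 and 3, against 4.31, 85.1 and 14.5 in wild type replicates 1, 2 and 3. grl-22 read 64.3, 60.2 and 107 in yap-1(ys38), against 15.5, 21.6 and 91.5 in wild type. grd-7 read 45.7, 37.9 and 89.5 in yap-1(ys38), against 2.29, 24.6 and 43.6 in wild type, and was highest in the array numbered 3 of each strain.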
